A study of Arabidopsis thaliana with 18 samples.

Results

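Rosettes of Arabidopsis thaliana, wild type Col-0, were compared between 8 h and 0 h by their transcript levels on Affymetrix arrays. The comparison was chosen by the sample titles: the 3 arrays titled 8 h were set against the 3 titled 0 h, out of 18 arrays that cover 6 labelled times. All plants were untreated, 5 to 6 weeks old and of the same genotype, so the labelled time was the factor compared. Each array held RNA of 15 rosettes ground together, and the replicate letters A, B and C mark courses of plants that were grown separately, called series here. The labels do not say when the light came on, and the times are used only as labels. On the arrays, 22746 probe sets were tested, of which 13513 stand for 1 named gene, 503 match several genes and 8730 are unnamed here. A gene is called measured below only if a probe set stands for it alone by name. Other genes of a list or family may be covered by the unnamed probe sets. A rosette is a mixture of leaf tissues, and fewer cells of a type cannot be told apart from less RNA per cell.

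A leaf runs much of its metabolism on a daily programme. Light drives photosynthesis and the storage of carbon as starch, and in darkness that starch is broken down to maltose and glucose, which feed sucrose synthesis, export and respiration. The circadian clock, a network of transcription factors that repress each other at different times of day, sets the expression of many genes ahead of these changes, including genes of growth, flowering time and cold acclimation. When sugar runs low, leaves are known to raise genes for the breakdown of amino acids, purines and lipids.

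The labels were checked before the results. The median signal of the 6 arrays lay between 32.8 and 38.8. Over all probe sets, the 0 h arrays correlated on average with each other by 0.961 to 0.971, and at most by 0.966 with any other time. The 8 h arrays were less distinct. The array labelled 8 h B correlated by 0.957 with the other 8 h arrays and by 0.969 with the 12 h arrays, and 8 h A by 0.961 and 0.965. With single arrays, 8 h B correlated by 0.98 with 12 h A and 0.952 with 12 h C, against 0.965 with 8 h A and 0.95 with 8 h C. By this measure 8 h B lay closer to the 12 h arrays than to the other 8 h arrays, and its label was kept. Between series A and C alone, 8 h A and 8 h C correlated by 0.956, above the 0.946 of 8 h A with 12 h C and the 0.95 of 8 h C with 12 h A. Series C differed in its controls at both times: the spike-in bioC read 622.4 (8 h) and 585.9 (0 h), against 153.2 to 164.4 in series A and B. The 3'/5' ratio of ubiquitin control probe sets, a sign of RNA quality, in series C was 4.79 (8 h) and 5.12 (0 h), and 2.14 to 2.74 in the other 4 arrays. The series B arrays of 4 h and 16 h, which lie outside the comparison but enter the estimate of spread, resembled each other's times in the other series. The leaf markers were strong, with the 6 measured ones summing to 15970 to 24380 at 8 h and 18350 to 30580 at 0 h. The 3 measured root markers summed to 189.2 to 310.1 at 8 h and 211.2 to 264.9 at 0 h, ranges that overlap, and most of this was PYK10, a beta-glucosidase known from roots (159.9 to 266.1 at 8 h, 182.6 to 244.6 at 0 h). The single measured flower marker, AT5G45880, stayed at or below 5.3 on all 6 arrays.

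The difference between 8 h and 0 h was broad. Of the probe sets tested, 3780 (16.6%) passed an adjusted p below 0.05 by limma, fitted to all 18 arrays with time and series. At 8 h, 2034 (8.94%) were higher and 1746 (7.68%) lower, and 1023 and 897 of these stand for 1 named gene. The counts of list members given below are to be read beside these shares. The purine, tubulin, TBL, RALF-like, hydrolase, chaperonin and repeat-protein lists were added or changed after values were seen. For them a count above these shares is no independent support. The median log2 difference was 0.896 among the probe sets called higher and -0.956 among those called lower. A smaller part changed more: 251 were higher and 228 lower by at least 2 on the log2 scale, which is at least 4-fold on log2(signal + 1.1). The direction was the same in series A, B and C for 3773 of the 3780, which a call on these same arrays already favours. The signals at 8 h and 0 h did not overlap for 3411 of the 3780, against 6169 (27.1%) of all probe sets tested. The median difference over all probe sets was 0.0478, with quartiles of -0.2737 and 0.3851. Without the array labelled 8 h C the number called was 2443, and it was 2682 without 8 h A and 3067 without 8 h B. Leaving out a 0 h array gave 2530 to 2763. Without the whole of series A it was 1030, without C 1133 and without B 4433. Of the 93 called genes named below, all 93 kept their direction and 75 kept the call without each of the 6 arrays in turn, while 51 kept it without series A, 91 without B and 47 without C.

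**Figure D1:**
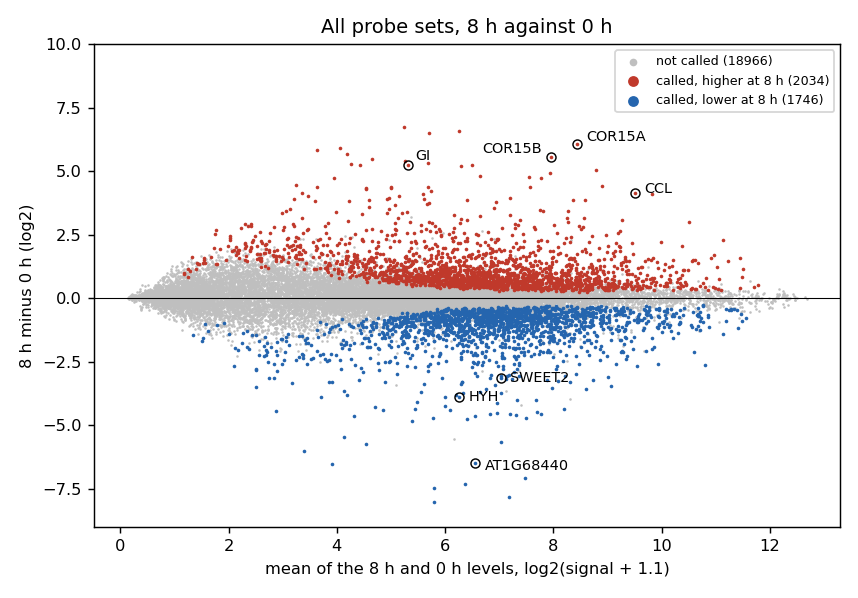
Each point is a probe set, placed by the mean of its 8 h and 0 h levels on the log2(signal + 1.1) scale (horizontal) and by its difference, 8 h minus 0 h, on the log2 scale (vertical). Red points were called higher at 8 h (2034), blue points lower (1746), grey points were not called, and ringed points are named genes. Large differences in both directions occur over a wide range of levels.

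Among the called probe sets, 0 h was mostly the far end of the 6 labelled times. They were called for a difference between 8 h and 0 h, which by itself favours an extreme mean at these times. The counts that follow describe the called probe sets and are no separate evidence. Of the 2034 higher at 8 h, 1858 had their lowest mean of the 6 times at 0 h, and of the 1746 lower at 8 h, 1589 had their highest mean there. The opposite end was shared between 8 h and 12 h. The highest mean fell at 8 h for 1119 and at 12 h for 727 of the probe sets called higher, and the lowest mean at 8 h for 920 and at 12 h for 749 of those called lower. In a test of 8 h against 12 h in the same fit, 0 probe sets (0%) passed, with 557 at an unadjusted p below 0.05 by limma and a smallest adjusted p of 0.459. That count was 145 once 8 h B and 12 h B were left out, an alternative chosen after seeing the data, and 764 without series B.

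The gene with the largest rise among those named by rule was AT1G07050, which has no symbol in the tables used. Its signals were 468.4, 404 and 623.5 at 8 h, against 9, 7.2 and 0.9 at 0 h, in the order of series A, B and C as throughout. Where values lie below the offset of 1.1, as in 0 h C here, the size of a difference depends on that offset. The lowest 8 h array lay far above the highest 0 h array, and the difference was 6.48 ± 1.12 on the log2 scale (± SE, adjusted p = 0.00126 by limma). At the other end, AT1G68440 had 8.7, 23 and 3.1 at 8 h and 828.9, 960.6 and 891 at 0 h. It fell by 6.48 ± 0.56 (adjusted p = 4.7e-06), the same direction in every series being part of the naming rule. Most of the genes with the largest changes carry only a locus number here. The 14 largest rises ranged down to 4.37 and the 14 largest falls to -4.11, and among the latter were AT2G41250, with 37.9, 24.4 and 5 at 8 h against 871.1, 942.3 and 997.2 at 0 h, and AT1G64500, with 13.2, 23.5 and 11.2 at 8 h against 441.2, 470.5 and 417.2 at 0 h. None of the other large falls overlapped between the times. Of these 28 genes, 2 lost the call when 1 array was left out: AT2G23910 (4.47 ± 1.38, adjusted p = 0.0393) without any 1 of the 6 arrays (adjusted p = 0.0585 to 0.168) and AT2G15020 (-5.73 ± 1.41, adjusted p = 0.0128) without 8 h A (adjusted p = 0.0597). Beyond them, 2 probe sets without a single named gene rose more, by up to 6.73, and 6 fell more, with a difference of -8.04 for the lowest.

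Cold-regulated genes were among the rises. Of 5 measured members of a cold and dehydration list, 4 rose, and the list's median difference was 3.11, against 0.0478 over all probe sets. COR15A encodes a small protein of the chloroplast stroma that protects membranes in freezing. Its signal was 2336.6, 3036.4 and 3205.8 at 8 h, against 45, 45.5 and 34.7 at 0 h. No array came near the other time, and the difference was 6.06 ± 0.29 (limma adjusted p = 4.39e-08). Its close relative COR15B had 1592.9, 1630.4 and 1931.7 at 8 h and 24.4, 42.7 and 41.5 at 0 h (5.56 ± 0.30, adjusted p = 1.09e-07). LTI30, a dehydrin that binds membranes and rises in cold and drought, had 266.8, 131.7 and 344.4 at 8 h and 30.2, 18.9 and 29.6 at 0 h (3.11 ± 0.47, adjusted p = 0.000475). COR47, another dehydrin, had 790.7, 488.4 and 1094.9 at 8 h and 235.6, 139.6 and 223.7 at 0 h (1.94 ± 0.34, adjusted p = 0.00146). In both dehydrins series B was the lowest at either time. STZ, a zinc finger repressor also known as ZAT10, was not called, with 21.8, 20.7 and 6.9 at 8 h and 29.7, 14.2 and 36.7 at 0 h (-0.72 ± 0.57, adjusted p = 0.462). The same 4 genes stood as higher in this list without each of the 6 arrays in turn, and with both 8 h B and 12 h B left out. Without series C there were 3, as COR47 lost its call (adjusted p = 0.0787).

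**Figure D2:**
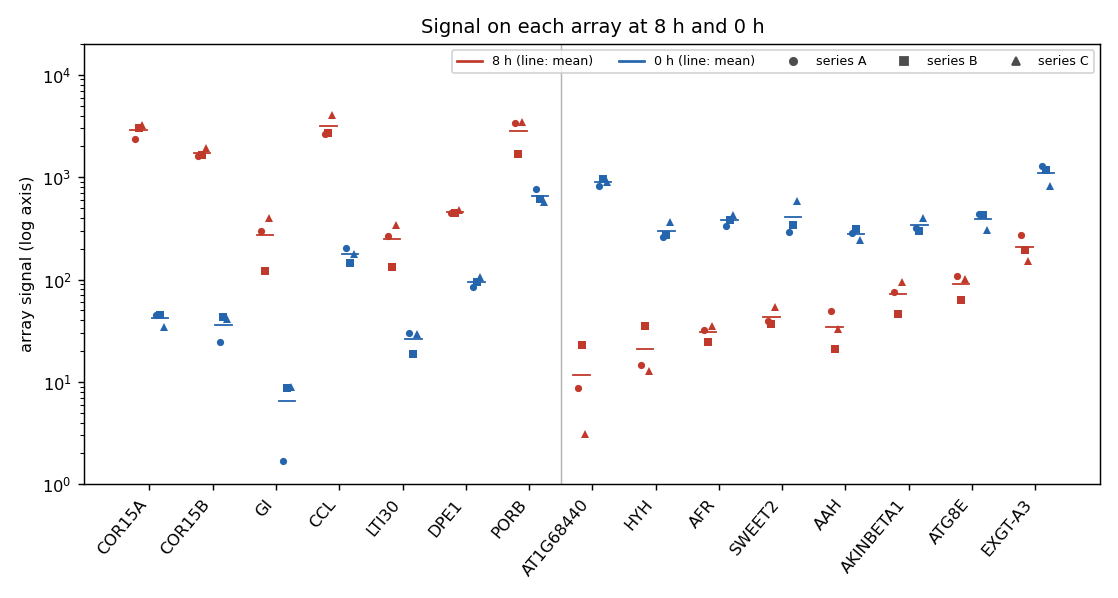
Signal on each array (log axis) of 15 named genes at 8 h (red, left of each pair) and 0 h (blue, right), with series A, B and C as circle, square and triangle and a line at the mean of 3 arrays. The 7 genes on the left were higher and the 8 on the right lower at 8 h, and in none of them did the 2 times overlap.

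Of 3 measured members of the list of evening clock genes, 2 rose, both by more than 5 on the log2 scale. GI encodes GIGANTEA, a large protein that links the clock with flowering time and with the breakdown of clock and flowering regulators. Its signal was 297.6, 120.7 and 401.3 at 8 h, against 1.7, 8.7 and 9 at 0 h. All 8 h arrays were above all 0 h arrays, but series B stood at less than the others, and the difference was 5.23 ± 0.98 (limma adjusted p = 0.00231). It had an adjusted p of 0.111 without series A. AT4G33980 had 122.1, 71.2 and 88.3 at 8 h and 0.4, 0.4 and 0.9 at 0 h (5.81 ± 1.21, adjusted p = 0.00447), and all its 0 h values lie below the offset of 1.1, so the size depends on it. Its adjusted p was 0.0849 without series A and 0.0954 with C left out, so the list then had 0 calls without A and 1, GI, without C. COR27, a cold-induced repressor of evening genes, was also apart in all series, with 143.7, 137.2 and 176.6 at 8 h and 29, 18.1 and 27.7 at 0 h. Yet it was not called (2.58 ± 1.35, adjusted p = 0.236). Its spread came from other times: at 4 h it had 0.9, 74.8 and 1.5, and at 16 h 100.2, 1.1 and 87.7. With 4 h B and 16 h B left out, its adjusted p was 9.01e-06. Without series B, all 3 measured members of the list were called higher. RVE6, a clock activator of the morning family, had 49.1, 54.5 and 57.9 at 8 h and 53.5, 64.2 and 62.6 at 0 h (-0.15 ± 0.21, adjusted p = 0.712).

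In the list of photoperiod and DOF genes 2 of 3 measured members fell, and 0 rose. CDF5, a DOF factor of the family that represses CONSTANS early in the day, had 14.8, 11.6 and 17.3 at 8 h, against 89.7, 99.5 and 105.9 at 0 h (-2.68 ± 0.58, limma adjusted p = 0.00566, but 0.0912 without series A and 0.0982 without series C). AT1G26790, in the same list, had 6.3, 0.4 and 0.6 at 8 h and 141.2, 134.6 and 80 at 0 h (-5.45 ± 0.90, adjusted p = 0.000956). Of its 8 h values 2 lie below the offset, and the difference was -3.74 with the offset at the 25th percentile of all values. AT2G34140, the third member measured, had 3.5, 1.8 and 3.2 at 8 h and 13.7, 5.1 and 6.5 at 0 h and was not called (adjusted p = 0.158). Of the 23 genes in the light signalling list 1 was measured. This was HYH, a bZIP factor close to HY5 that promotes responses to light, with 14.6, 35 and 12.7 at 8 h and 262.6, 271.8 and 365.6 at 0 h. It fell by 3.91 ± 0.40 (adjusted p = 1.93e-05), the 8 h B array being the highest of its time. AFR and MYC4 stand in no list and were named for the size of their change. AFR, an F-box protein of far-red light signalling, had 32.2, 24.5 and 34.9 at 8 h and 331.2, 377.3 and 427.3 at 0 h (-3.59 ± 0.62, adjusted p = 0.00121, but 0.0591 without series C). MYC4, a factor of jasmonate responses, fell by 1.198 ± 0.257 (adjusted p = 0.00556, but 0.171 without series A and 0.13 without C), with 76.1, 141.9 and 50.5 at 8 h and 256.1, 194.6 and 135.5 at 0 h, and 8 h B overlapped with 0 h C. These groups hold few measured members, so their counts describe single genes.

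**Figure D3:**
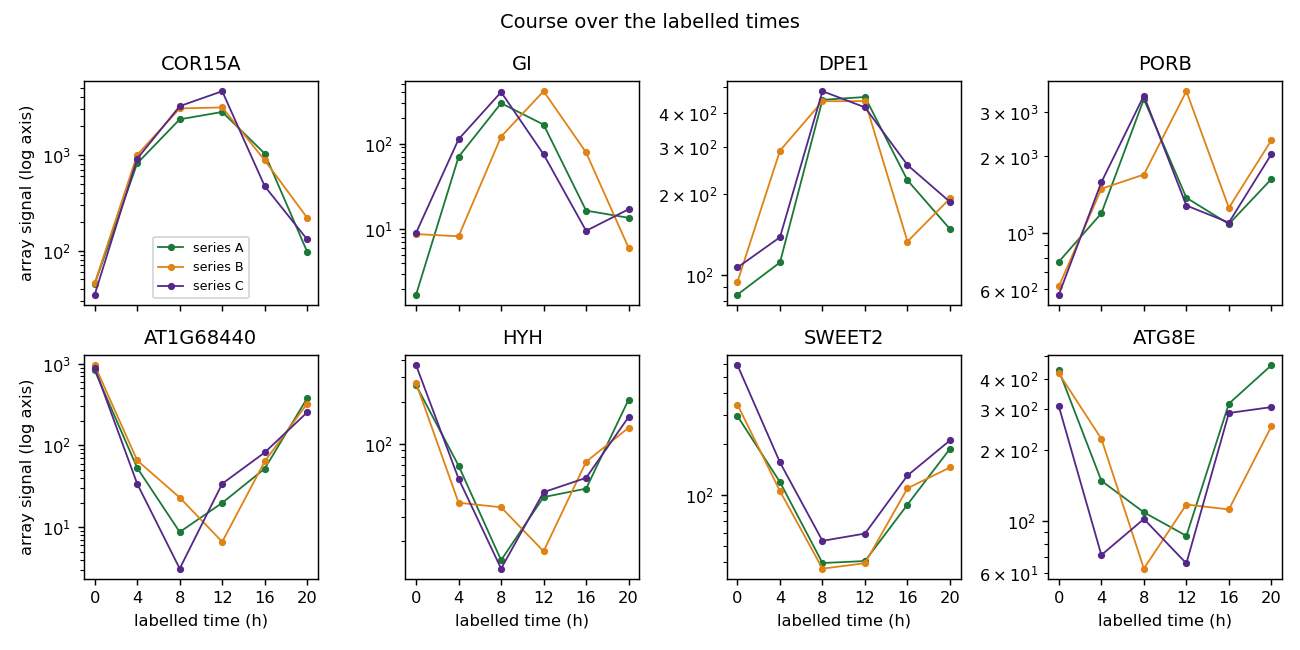
Array signal (log axis) of 8 genes over the 6 labelled times in hours, with 1 line for each of series A (green), B (orange) and C (purple). The upper genes were higher and the lower genes lower at 8 h than at 0 h. COR15A, DPE1 and SWEET2 had like values at 8 h and 12 h in each series, while GI and PORB were higher at 12 h than at 8 h in series B and lower in series A and C.

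Enzymes of both the breakdown and the synthesis of starch were among the rises. Both measured members of the starch degradation list were higher at 8 h. DPE1, the plastid disproportionating enzyme that recycles maltotriose, had 447.6, 442.3 and 481.8 at 8 h, against 84.7, 94.5 and 106.8 at 0 h. Its arrays were nearly equal within each time, and the difference was 2.25 ± 0.28 (limma adjusted p = 0.000109). PWD, a dikinase that phosphorylates starch and opens it to hydrolysis, had 619.3, 837 and 745.4 at 8 h and 224.4, 207.8 and 195.7 at 0 h (1.80 ± 0.48, adjusted p = 0.0198, but 0.0526 to 0.0733 without any 1 array other than 0 h A). On the synthesis side 2 of 3 measured members rose. APL4 and APL3 are large subunits of ADP-glucose pyrophosphorylase, the enzyme that makes the starch precursor. APL4 had 35.6, 31 and 29.5 at 8 h and 11.1, 12.4 and 12.4 at 0 h (1.34 ± 0.30, adjusted p = 0.00656). APL3 had 76.8, 181 and 81.8 at 8 h and 39.9, 23.4 and 40 at 0 h (1.61 ± 0.38, adjusted p = 0.00994, but 0.0593 without 0 h B), and 8 h B stood above its other arrays. The branching enzyme SBE2.2 had 348.9 to 395.6 at 8 h and 263.8 to 288.4 at 0 h and was not called (0.41 ± 0.15, adjusted p = 0.0808). Without series A or without series C, 1 gene of the degradation list and 0 of the synthesis list were called. Without series B these were 2 and 3.

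SWEET proteins let sugars cross membranes along their gradient. Of 14 measured genes of this family 1 rose and 2 fell, against 8.94% higher and 7.68% lower over all probe sets, so the counts describe single genes and not the family. Without series A or without series C, 0 rose and 1 fell, and without series B 3 rose and 3 fell. SWEET2, a vacuolar carrier, had 39.6, 36.7 and 53.6 at 8 h, against 293.8, 343.3 and 587.8 at 0 h. It was lower in each series, with differences of -2.86, -3.19 and -3.43, and the fitted difference was -3.16 ± 0.14 (limma adjusted p = 4.39e-08). SWEET11, which moves sucrose out of phloem parenchyma for export, had 576.9, 831.2 and 683.5 at 8 h and 1328.1, 1214 and 1802.4 at 0 h (-1.05 ± 0.29, adjusted p = 0.0242, but 0.0793 to 0.113 without 1 array of series A or C). SWEET4 had 65.5, 53.5 and 64.2 at 8 h and 33.6, 31.9 and 30.6 at 0 h (0.90 ± 0.19, adjusted p = 0.00508). TMT2, a sugar transporter of the vacuole membrane, had 185.1, 133.9 and 124.1 at 8 h and 81.2, 82.6 and 63.4 at 0 h (0.94 ± 0.21, adjusted p = 0.00754, but 0.095 without series A and 0.084 without C). The sucrose phosphate synthase gene ATSPS4F was not called, as 294 on the array 8 h B contrasted with 107.2 and 123.4 on the other 8 h arrays (0 h 369.7, 284 and 252.2, adjusted p = 0.143).

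Of 4 measured genes in the list for sugar starvation 2 fell and 0 rose, also without series A, B or C. AKINBETA1, a subunit of the energy sensor kinase SnRK1, had 76.3, 45.7 and 95.1 at 8 h and 321, 297.8 and 400.4 at 0 h (-2.26 ± 0.29, limma adjusted p = 0.000147). MCCA, the biotin-carrying subunit of methylcrotonyl-CoA carboxylase in leucine breakdown, had 50.1, 41.7 and 67.7 at 8 h and 107.4, 110.1 and 149.9 at 0 h (-1.20 ± 0.17, adjusted p = 0.000369). Its partner subunit MCCB (-0.16 ± 0.14, adjusted p = 0.521) and IVD, which acts just before it (0.14 ± 0.22, adjusted p = 0.76), were not called. Of 3 measured enzymes of purine degradation, a list set up after values were seen, 2 fell. AAH, allantoate amidohydrolase, had 49.6, 20.8 and 32.8 at 8 h and 283.2, 310.6 and 241.8 at 0 h (-3.05 ± 0.29, adjusted p = 1.1e-05), and ALN, allantoinase, fell by 1.46 ± 0.22 (adjusted p = 0.00046). UGLYAH, a later enzyme of the same route, had 45.9, 20.3 and 25.5 at 8 h and 34.6, 30.8 and 22.6 at 0 h, which overlap (adjusted p = 0.996).

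ATG8 proteins are coupled to lipid on the growing autophagosome. Of 8 measured autophagy genes 3 fell and 0 rose, against 7.68% lower and 8.94% higher over all probe sets. The 3 that fell were all ATG8 isoforms. ATG8E had 108.8, 62.7 and 101.9 at 8 h, against 435.9, 423.4 and 306.5 at 0 h (-2.10 ± 0.40, limma adjusted p = 0.00268). ATG8F had 762.3, 432.3 and 618.7 at 8 h and 1039.5, 921 and 1309.8 at 0 h (-0.87 ± 0.16, adjusted p = 0.00181). ATG8C had 186.6, 166.8 and 135.9 at 8 h and 286.2, 278.4 and 240.2 at 0 h (-0.72 ± 0.14, adjusted p = 0.00319). In all 3 isoforms the 8 h arrays lay below the 0 h arrays. ATG8B, ATG8D, ATG8G and ATG8H were not called, nor was ATG3, the enzyme that couples ATG8 to its lipid, with 143, 120.9 and 134.2 at 8 h and 133.1, 126.3 and 134.8 at 0 h. The list's count of 3 was the same without each of the 6 arrays, but it was 1 without series A or without series C, and 4 without B. SDP1, a lipase of stored oil, fell by 0.95 ± 0.23 (adjusted p = 0.0125, but 0.0542 to 0.0589 without 8 h B, 8 h C or 0 h C). PDC2, a pyruvate decarboxylase of fermentation, stood out on the other side: it had 408.1, 269.4 and 259.1 at 8 h and 35.7, 33.4 and 27.3 at 0 h (3.21 ± 0.43, adjusted p = 0.000179).

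**Figure D4:**
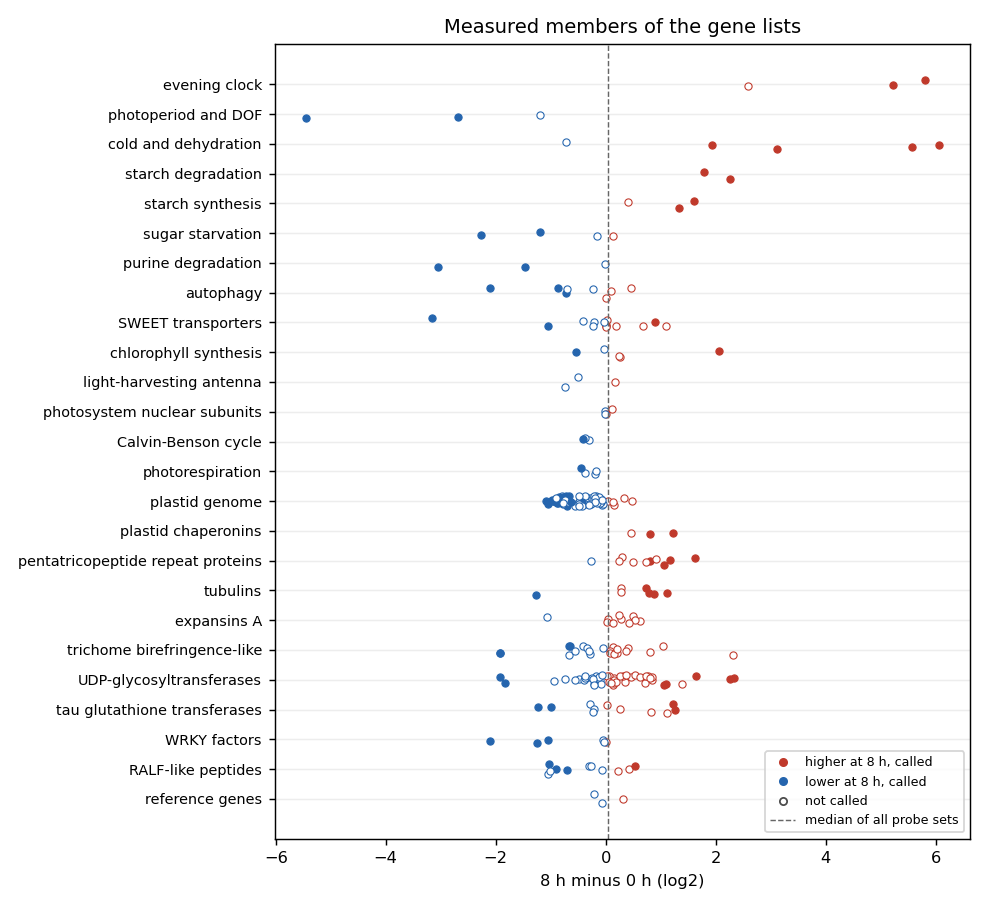
Difference between 8 h and 0 h (log2, horizontal) of each measured member of 25 gene lists, 1 point per gene, red to the right of 0 and blue to the left. Filled points were called and open ones were not, and the dashed line marks the median of all probe sets, 0.0478. The evening clock and starch lists lie to the right, the cold list also but for STZ at -0.72, the plastid genome mostly to the left, and the nuclear photosystem subunits near 0.

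Few nuclear genes of the photosynthetic apparatus could be given a named probe set, as 8730 probe sets are unnamed here. Of 25 listed photosystem subunits 4 were measured and none of these was called, with differences between -0.01 and 0.11. Of 20 listed antenna proteins 3 were measured. None of these was called either, but their median was -0.509. LHCB4.2 had 3920.7, 1778.8 and 3902.7 at 8 h and 3647, 3770.1 and 5712 at 0 h, so 8 h B was far below its group (-0.51 ± 0.63, limma adjusted p = 0.677). LHCB4.3 had 404.8, 1269.7 and 369.2 at 8 h and 950.2, 1188.5 and 777.8 at 0 h (-0.74 ± 0.40, adjusted p = 0.249, but 0.0246 without 8 h B and 0.000138 without series B), so 8 h B stood at its 0 h level and the other 8 h arrays far below. The Calvin-Benson cycle and photorespiration had 1 call each, 0 without series A or without series C, and 2 each without series B. SBPASE, which regenerates the carbon acceptor, had 1765.2, 2403.8 and 2363.1 at 8 h and 2489.9, 2573.7 and 3712.1 at 0 h (-0.42 ± 0.11, limma adjusted p = 0.0231, but 0.0791 to 0.126 without 1 array of series A or C). GLYK, the kinase that returns photorespiratory glycerate to the cycle, had 828.6, 891.9 and 836.2 at 8 h and 1067.6, 1257.3 and 1178.1 at 0 h (-0.45 ± 0.09, adjusted p = 0.00478). CaS, a calcium sensor of the thylakoid, fell by 1.15 ± 0.18 (adjusted p = 0.000552), with 1182.4, 1395.6 and 1188.7 at 8 h and 2466.9, 2538.7 and 3412.9 at 0 h.

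Of 5 measured genes of chlorophyll synthesis 1 rose and 1 fell. PORB, a light-dependent protochlorophyllide reductase, had 3360.8, 1697.7 and 3467.3 at 8 h, against 771.9, 616.7 and 572.9 at 0 h (2.06 ± 0.34, limma adjusted p = 0.000972, but 0.0701 without series C). CHLM, a methyltransferase that acts earlier in the pathway, had 1403.2, 1207.6 and 1632.1 at 8 h and 1699, 1828.1 and 2709.4 at 0 h (-0.53 ± 0.15, adjusted p = 0.0241, but 0.0726 to 0.129 without 8 h B, 8 h C or 0 h C), and the other 3 measured genes of the pathway, HEMB1, GSA1 and CHLI2, were not called. Other chloroplast genes were named for the size of their change. PIFI, a partner of the chloroplast NDH complex, had 1893.9, 1630.8 and 1918.9 at 8 h and 859.7, 705.1 and 724.8 at 0 h (1.25 ± 0.13, adjusted p = 2.23e-05). CCB3, needed to attach haem to cytochrome b6, rose by 1.297 ± 0.229 (adjusted p = 0.0015), and TAAC, a carrier of the thylakoid, by 1.01 ± 0.20 (adjusted p = 0.00309). Of 3 plastid chaperonins 2 rose, with Cpn60beta2 at 850.3, 1530.6 and 1413.8 at 8 h and 415.1, 547.9 and 623.6 at 0 h (1.23 ± 0.19, adjusted p = 0.000566) and Cpn60beta4 at 0.80 ± 0.21 (adjusted p = 0.0175, but 0.0589 to 0.0836 without 1 array of series B or C), and 1 rose without series A or without series C. Pentatricopeptide repeat proteins bind and process RNA of organelles. Their list holds 14 genes picked by symbol, and genes named only by a locus number are outside it. Both this list and that of the chaperonins were added or changed after values were seen. Of its 10 measured repeat-protein genes 4 rose, against 8.94% higher over all probe sets, which describes these genes and not the family. Among them were OTP81, which had 55.7, 92.8 and 55.3 at 8 h and 17.2, 26.1 and 19.4 at 0 h (1.63 ± 0.32, adjusted p = 0.00285), and PPR596, which rose by 1.17 ± 0.19 (adjusted p = 0.000869). That count ranged between 2 and 4 when 1 array was left out, and it stood at 0 once series C was left out and at 2 for series A.

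Probe sets of genes in the plastid's own genome were on the whole lower in signal at 8 h. How well these signals follow the levels of plastid transcripts was not tested. Of 69 measured, 18 fell and 0 rose, against 7.68% lower and 8.94% higher over all probe sets. Of the 69, 64 had a difference below 0, and the median was -0.455, against 0.0478 over all probe sets. The median was -0.557, -0.366 and -0.455 in series A, B and C. The class of photosynthesis held 47 genes: photosystems, cytochrome complex, ATP synthase, NDH complex and Rubisco, and also ycf3, ycf4, ccsA and cemA. Its median was -0.483 with 11 called, ycf4 and cemA among them. The 19 genes of gene expression (ribosome and RNA polymerase) had a median of -0.434 with 5 called. rbcL, the large subunit of Rubisco, had 172.8, 185.8 and 396.7 at 8 h, against 347.4, 367.1 and 885.1 at 0 h. Within each series it was at about the same fraction of its 0 h value, although 8 h C exceeded 2 of the 0 h arrays (-1.05 ± 0.14, limma adjusted p = 0.000189). ndhH, an NDH subunit, had 94.9, 133.2 and 97.1 at 8 h and 179.6, 292.1 and 231.6 at 0 h (-1.09 ± 0.26, adjusted p = 0.00976, but 0.0583 without 8 h C). Series A held the widest values, such as a difference of -3.28 for rpoB, an RNA polymerase subunit, against 0.664 in series B and 0.305 in series C. The number called lower depended on the arrays used: leaving out series A gave 2, leaving out C gave 3 and leaving out B gave 25, with a range between 6 and 16 when 1 array was left out and 18 with both 8 h B and 12 h B left out. The median was -0.397, -0.486 and -0.506 without series A, C and B.

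**Figure D5:**
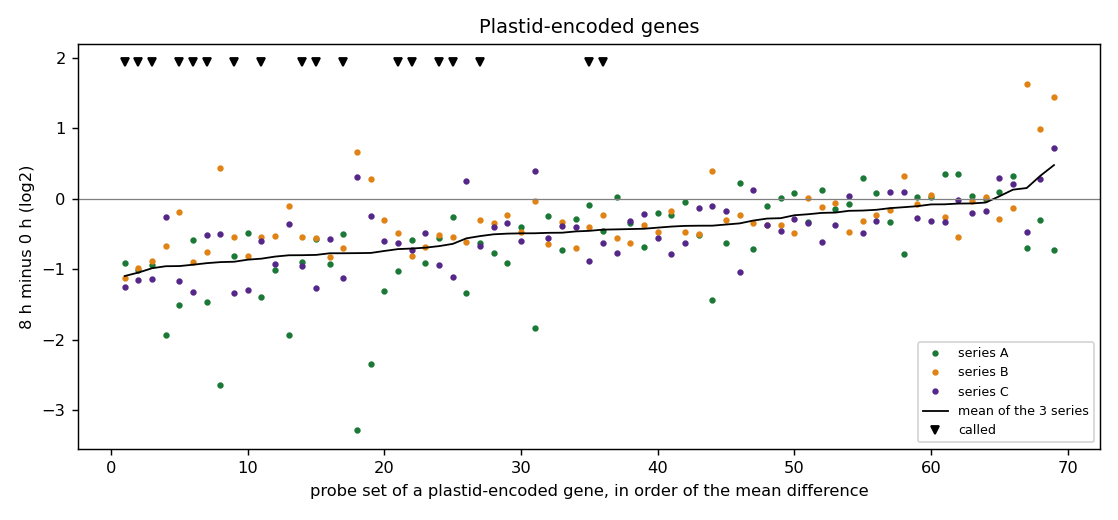
The difference between 8 h and 0 h (log2) of 69 probe sets of plastid-encoded genes, in order of their mean difference, with series A, B and C as green, orange and purple points and the mean as a line. Triangles mark the 18 that were called. The mean lies below 0 for 64 of the 69.

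Of 7 measured tubulin genes, which encode the building blocks of microtubules, 4 rose and 1 fell, against 8.94% and 7.68% over all probe sets. This list was added or changed after values were seen, so its count describes single genes. Without series A 0 rose, without series C 1 and without series B 4. TUA6 had 1552.4, 1588 and 1800.5 at 8 h, against 1009.5, 973.5 and 964.8 at 0 h (0.74 ± 0.13, limma adjusted p = 0.00134), whereas TUA1 had 97.9, 89.3 and 70.7 at 8 h and 217.3, 180.2 and 225.9 at 0 h (-1.27 ± 0.15, adjusted p = 8.8e-05). TUB1 rose by 0.79 ± 0.22 (adjusted p = 0.0242), TUB5 by 1.11 ± 0.31 (adjusted p = 0.0234) and TUB9 by 0.88 ± 0.23 (adjusted p = 0.0171). These 3 calls were lost without some single arrays: TUB1 without 8 h C, 0 h B or 0 h C (adjusted p = 0.0652 to 0.133), TUB5 without any array but 8 h B and 0 h A (0.0934 to 0.13), and TUB9 without 1 array of series B or C (0.0521 to 0.0681). WLIM2a and WLIM1, LIM proteins that bundle actin filaments, both rose: WLIM2a had 374.7, 254 and 429.1 at 8 h and 78.5, 82.8 and 96.1 at 0 h (2.00 ± 0.24, adjusted p = 8.34e-05), and WLIM1 rose by 1.45 ± 0.21 (adjusted p = 0.000322). SP1L4, of a family of microtubule-associated proteins, had 22.7, 17.1 and 14.1 at 8 h and 86.8, 80.1 and 81.2 at 0 h (-2.16 ± 0.39, adjusted p = 0.00181).

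At the cell wall, EXGT-A3, which cuts and rejoins xyloglucan chains, had 273.4, 194.5 and 150.4 at 8 h, against 1289, 1173.7 and 819.2 at 0 h. Its differences in series A, B and C were -2.23, -2.59 and -2.44, and a shared direction was a condition for naming it. The fitted difference was -2.42 ± 0.18 (limma adjusted p = 1.53e-06). The list of xyloglucan endotransglucosylases was picked by symbol, and its measured genes are all named XTH. It leaves out EXGT-A3, although that enzyme has the activity of the family. Of the 9 measured genes in the list 0 rose and 1 fell, with a median difference of 0.0225. EXO, a growth gene induced by brassinosteroids, had 92.7, 112.7 and 62.1 at 8 h and 527.2, 296.1 and 250.8 at 0 h (-1.96 ± 0.33, adjusted p = 0.00117). TBL proteins acetylate wall polysaccharides. Of 22 measured genes 0 rose and 4 fell, against 8.94% higher and 7.68% lower over all probe sets. The family's median difference was 0.0085, so the counts describe single genes. Without series A 0 fell and without series C 1, while without series B 2 rose and 4 fell. TBL45 had 207.3, 169.2 and 183.7 at 8 h and 731.3, 656.1 and 749.5 at 0 h (-1.93 ± 0.39, adjusted p = 0.00379). TBL37 also fell (-1.93 ± 0.30, adjusted p = 0.00066). The widest difference in the family, in TBL26, was not called: it had 335, 644.4 and 88.3 at 8 h and 56.4, 63.1 and 41.5 at 0 h (2.32 ± 0.77, adjusted p = 0.0547, and 0.00499 without series B). The expansin-like gene EXLA2 had 19, 15.9 and 4.6 at 8 h and 55.6, 40 and 44.7 at 0 h (-1.93 ± 0.37, adjusted p = 0.00252), but none of 10 measured alpha-expansins, which loosen walls during growth, was called. On the other side, the cellulase-family gene GH9C2 had 557.3, 667.1 and 505.9 at 8 h and 207.8, 217.8 and 154.9 at 0 h (1.58 ± 0.24, adjusted p = 0.000504), and BGLU44, a beta-glucosidase, had 2026, 953.3 and 1702.6 at 8 h and 417.9, 302.5 and 283.1 at 0 h (2.17 ± 0.30, adjusted p = 0.000224). Among 35 measured genes of these 2 hydrolase families 7 rose and 1 fell, against 8.94% higher and 7.68% lower over all probe sets. This list was added or changed after values were seen, so its count describes single genes. When 1 array was left out 4 or 5 rose. Without series A or without series C 3 rose, and 6 did without series B. Of 11 RALF-like genes, which encode small signalling peptides of the cell surface, 1 rose and 3 fell, to be set beside the same shares. RALFL34 rose by 0.52 ± 0.11 (adjusted p = 0.00508), and RALFL32 had 77.7, 75.9 and 70.2 at 8 h and 152.3, 134.7 and 137.2 at 0 h (-0.91 ± 0.13, adjusted p = 0.000333). Without series A 1 of the family fell and without series C 3, and 0 rose in both cases. Without series B 1 rose and 4 fell.

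Glycosyltransferases of the UGT family attach sugars to hormones and specialised metabolites, and of 47 measured 5 rose and 2 fell. These counts are near the 8.94% higher and 7.68% lower over all probe sets, so they describe single genes and not the family. UGT74D1, which can glucosylate auxins, had 72.8, 77.2 and 59.4 at 8 h, against 282.1, 320.6 and 210 at 0 h (-1.93 ± 0.15, limma adjusted p = 1.62e-06). UGT76C2, which inactivates cytokinins by N-glucosylation, had 42.9, 35.1 and 46.8 at 8 h and 155.5, 175 and 121.8 at 0 h (-1.82 ± 0.22, adjusted p = 6.97e-05). Among those that rose, UGT84A3, which makes sinapoyl-type glucose esters, had 87.3, 63.7 and 51.9 at 8 h and 12.4, 9.2 and 16.2 at 0 h (2.33 ± 0.39, adjusted p = 0.000955). UGT80B1, a sterol glucosyltransferase, had 156, 117.5 and 197.2 at 8 h and 45.5, 45 and 55.7 at 0 h (1.64 ± 0.16, adjusted p = 1.26e-05). UGT74B1, of glucosinolate synthesis, had 493.5, 476.6 and 415.8 at 8 h and 295, 170.5 and 200.7 at 0 h (1.09 ± 0.25, adjusted p = 0.00945, but 0.0517 without 0 h B). BCAT4, which starts the chain extension of methionine for glucosinolates, had 1591, 1112.4 and 1217.7 at 8 h and 523.4, 314.6 and 357.8 at 0 h (1.73 ± 0.50, adjusted p = 0.0291, but 0.0738 to 0.0979 without any 1 of the 6 arrays). OPCL1, an enzyme of jasmonate synthesis, had 219.1, 155.1 and 128.8 at 8 h and 77.8, 53.5 and 28 at 0 h (1.72 ± 0.30, adjusted p = 0.0015).

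Some enzymes were named for the size of their change and stand in no list. GR1, a glutathione reductase, had 175.5, 219.7 and 163.2 at 8 h, against 539.8, 571.7 and 540.1 at 0 h (-1.57 ± 0.36, limma adjusted p = 0.00865). GME, an epimerase of ascorbate synthesis, had 466.8, 763.6 and 411.4 at 8 h and 1175, 1328 and 1243.2 at 0 h (-1.24 ± 0.24, adjusted p = 0.00284). cICDH, the cytosolic isocitrate dehydrogenase that makes NADPH, had 1023.3, 1133 and 1135 at 8 h and 2232.4, 2372.2 and 3295.6 at 0 h (-1.24 ± 0.26, adjusted p = 0.005). In each of these 3 the arrays of the 2 times were apart, and each lost its call without series A (adjusted p = 0.104 to 0.125) and without series C (0.0787 to 0.138). Of 11 measured tau glutathione transferases, which conjugate glutathione to other compounds, 2 rose and 2 fell, against 8.94% higher and 7.68% lower over all probe sets. The family's median difference was 0.028, so the counts describe single genes. Without series A or without series C, 1 rose and 1 fell, and without series B 3 rose and 2 fell. GSTU20 had 1815.8, 1520.5 and 1825.2 at 8 h and 733.5, 626.8 and 862.2 at 0 h (1.22 ± 0.17, adjusted p = 0.000295), and GSTU18 had 251.3, 224.9 and 220.5 at 8 h and 593.9, 532.4 and 519.8 at 0 h (-1.24 ± 0.11, adjusted p = 6.39e-06). AAPT2, which makes membrane phospholipids, had 98.4, 122 and 94.3 at 8 h and 431.4, 489.8 and 414.3 at 0 h (-2.08 ± 0.15, adjusted p = 1.49e-06). SAMDC, an enzyme of polyamine synthesis, fell by 1.18 ± 0.20 (adjusted p = 0.00116, but 0.0674 without series C) and MTP11, a manganese transporter, by 1.44 ± 0.14 (adjusted p = 9.51e-06).

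Of 67 listed WRKY factors, which regulate many defence genes, 6 were measured. Of these 3 fell and 0 rose, against 7.68% lower and 8.94% higher over all probe sets. But 0 fell without series A or without series C and 1 without series B. WRKY47 had 18.7, 14.8 and 25 at 8 h, against 36.7, 38.9 and 71.7 at 0 h (-1.25 ± 0.25, limma adjusted p = 0.00339), while WRKY6 (-2.11 ± 0.55, adjusted p = 0.0173) lost the call without 8 h B, 8 h C or 0 h C (0.0594 to 0.0965) and WRKY22 (-1.06 ± 0.30, adjusted p = 0.0263) without any 1 array other than 0 h C (0.0593 to 0.108). PUB22, a U-box ubiquitin ligase that dampens immune responses, had 0.7, 1.2 and 1.2 at 8 h and 13.8, 11.2 and 17.4 at 0 h (-2.83 ± 0.46, adjusted p = 0.000799). Its 8 h values lie near or below the offset, and the difference was -1.37 with the offset at the 25th percentile. The 8 other measured genes of its family were not called. PDF1.2, the 1 measured gene of the defence list and a defensin of jasmonate responses, had 200.5, 24.3 and 49.4 at 8 h and 92.8, 49.6 and 87 at 0 h, which overlap (adjusted p = 0.715). Of the 3 measured genes in the heat shock list 1, HSA32, fell. Fes1B, of a family that helps Hsp70 release its nucleotide, had 296, 127.1 and 291.6 at 8 h and 20.9, 23.9 and 21.4 at 0 h (3.27 ± 0.35, adjusted p = 2.57e-05), and Fes1A rose by 0.94 ± 0.19 (adjusted p = 0.00389, but 0.0737 without series A and 0.0949 without C). HSA32, which prolongs heat tolerance, fell by 1.304 ± 0.317 (adjusted p = 0.0118, but 0.0511 to 0.0618 without 8 h B, 0 h B or 0 h C), and the small heat shock gene HSP17.6C stood at 0.4 to 1.2 on all 6 arrays.

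Genes often used as references for equal loading were not called. PEX4, a ubiquitin-conjugating enzyme gene, had 190.1, 175.5 and 215.9 at 8 h, against 193.9, 179.3 and 238.8 at 0 h (-0.07 ± 0.14, limma adjusted p = 0.82). SAND had 120.2, 146.5 and 125.9 at 8 h and 108.8, 113.8 and 94 at 0 h (0.31 ± 0.11, adjusted p = 0.0816), so its arrays were apart without a call. AT4G34270 had 98.1, 123 and 115.8 at 8 h and 146.6, 140 and 105.9 at 0 h (adjusted p = 0.456). UBC28, another ubiquitin-conjugating enzyme, fell by 1.14 ± 0.18 (adjusted p = 0.000798), with 897, 1007.5 and 1161.3 at 8 h and 2236.1, 1997.3 and 2518 at 0 h.

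None of the genes described was called between 8 h and 12 h. COR15A averaged 2859.6 at 8 h and 3496.3 at 12 h, a difference of -0.27 on the log2 scale, and SWEET2 averaged 43.3 and 46.5 (-0.09). In GI the series were at odds: it had 297.6, 120.7 and 401.3 at 8 h and 166.8, 411.1 and 74.8 at 12 h, so series B was higher at 12 h and series A and C at 8 h. PORB had 3360.8, 1697.7 and 3467.3 at 8 h and 1376.3, 3611.4 and 1283.2 at 12 h, which is the same order. HYH was lowest at 8 h in series A and C, with 14.6 and 12.7 against 41.4 and 44.9 at 12 h, but at 12 h in series B, with 35 at 8 h and 16.9 at 12 h. No test of a series alone was possible, as each holds 1 array per time.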

How the data were processed

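The deposited table holds 1 signal intensity, on a linear scale, for each probe set on each array. Per the submitters' processing notes these came from MAS5 (its version is not given in the sources used here). No detection calls were used, so a dim signal cannot be told apart from background, and the number of arrays limits the precision. Groups came from the sample titles, no 2 arrays held identical values, and 64 control probe sets were not tested.

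The 10th percentile of all values, 1.1, was added to each signal before log2, which understates changes of dim genes. limma 3.58.1 in R 4.3.3 was fitted to all 18 arrays with time and replicate letter as terms (10 residual degrees of freedom), an intensity trend in eBayes, and p-values adjusted by Benjamini-Hochberg over 22746 probe sets. The letter was kept as a block because it marks courses grown separately. The deviations of the 8 h and 0 h arrays from their means correlated by 0.097, 0.2 and 0.33 in series A, B and C. The fit was also run on simulated data, but the outcome is not reported here and is not used as support.

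Gene names came from the platform's annotation, updated through a RefSeq table of TAIR10.1 (13436 of 13513 matched). Genes were named as the 14 largest called changes in each direction with 1 named gene, the same direction in every series and a mean of at least 37.1 (the median signal) at the time with more signal, or as members of gene lists, or, by a rule added after values were seen, among the 60 largest in each direction that carry a symbol. The comparison and the lists were chosen with earlier results of these data known, and the purine, tubulin, TBL, RALF-like, hydrolase, chaperonin and repeat-protein lists were added or changed after values were seen. Promoter motifs and sequences were not analysed here.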

Additional observations from a re-analysis of the deposited data

How the results depend on the processing

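The count of 3780 probe sets for 8 h against 0 h was 2423 without the replicate block, that is, without the pairing of arrays by series, and 1683 with a minimum log2 difference of 1. It ranged between 1030 and 4433 when a series or an array was left out, and it moved by more than 1.5 times without series A (1030), series C (1133) and the array 8 h C (2443). It lay between 3002 and 4740 under the other alternatives: other scalings, offsets, no intensity trend, dim probe sets left out, the 6 arrays alone, or leaving out 4 h B with 16 h B, or 8 h B with 12 h B. With arrays shifted to equal medians, 46.84% of the calls were higher at 8 h, against 53.81% in the values as deposited. The 0 calls for 8 h against 12 h stood at 0 without the block, became 1 with no offset and 145 without 8 h B and 12 h B, and ranged between 0 and 764 when a series or array was left out. The called genes named kept their direction under every alternative in which they were tested, which was all 93 except with dim probe sets left out (91, without WRKY6 and PUB22), and 38 kept the call in each such alternative but the minimum difference. The call was lost most often without series C (46 genes) and series A (42), and the cause was not tested. The planned description of promoter motifs was not run.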

Other observations

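Other genes with a symbol in the tables and no place in the groups above were also apart. CCL had 2643.8, 2712.7 and 4031.1 at 8 h, against 201.4, 146.4 and 179.2 at 0 h (4.13 ± 0.45 on the log2 scale, limma adjusted p = 3.31e-05). SERPIN1, a protease inhibitor, had 354.1, 338.5 and 246.2 at 8 h and 142, 130.6 and 106.6 at 0 h (1.29 ± 0.11, adjusted p = 5.45e-06). APK1A, a protein kinase, had 32.3, 27 and 44.2 at 8 h and 174.5, 159.8 and 192.8 at 0 h (-2.34 ± 0.24, adjusted p = 1.72e-05). CP5 had 1840.7, 1113.2 and 1263.2 at 8 h and 3153.1, 3295 and 4786.4 at 0 h (-1.42 ± 0.22, adjusted p = 0.000676). TRY, a repressor of trichome formation, had 15.5, 19.9 and 16.1 at 8 h and 69.5, 73.3 and 55.7 at 0 h (-1.88 ± 0.36, adjusted p = 0.00248). In these 5 genes the arrays of the 2 times did not overlap.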
